A study of Rattus norvegicus with 2 samples.

Results

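The genes described here encode the enzymes that make, modify and break down fatty acids, sphingolipids and galactolipids. They were taken from a list of 43 gene symbols, and all 43 had a row in the deposited table of 17455 genes. By role, 20 members make, elongate, desaturate or activate fatty acids, 10 make ceramide, 3 make galactolipids and 5 act in lysosomal breakdown; the remaining 5 place other head groups on ceramide (3) or handle sphingosine phosphate (2). Rat oligodendrocyte precursor cells (OPCs), of wild type genotype per the labels, were transfected with a Lonza kit, the control with vector and the other culture with Slit1, a secreted ligand of Robo receptors. RNA was sequenced from 1 library in each group, so 2 libraries were compared. Strain and age of the rats, the number of animals and the time in culture are not stated in the sources.

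Myelin is an unusually lipid-rich membrane. Its typical lipids are galactocerebroside and sulfatide, which oligodendrocytes build from a ceramide backbone, a very long and often 2-hydroxylated fatty acid, and galactose. The fatty acid is made in the cytosol, extended in the endoplasmic reticulum and activated to its coenzyme A ester. Ceramide synthases join it to a sphingoid base, and lysosomal hydrolases later take the finished lipids apart.

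The libraries held 18817462 (control) and 18998770 (Slit1) estimated counts. Slit1 itself was at 1.70 TPM (transcripts per 1000000, per the authors' scaling) in control and 229.7 TPM in the Slit1 library. The lineage genes Olig2 (171 and 178 TPM) and Pdgfra (40.2 and 41.4 TPM) were present in both libraries. Astrocyte genes were abundant as well: the 8 listed markers summed to 9446 TPM in control and 10450 TPM in Slit1, led by Gfap with 4694 and 6130 TPM. The 5 oligodendrocyte markers summed to 667 and 2930 TPM. Microglial and endothelial markers were near 0, with sums of 3.02 and 5.19 TPM over 6 microglial genes and 0.76 and 1.38 TPM over 5 endothelial genes. Itgam (microglial) and Cldn5 (endothelial) were listed at 0 in control and at 0.03 and 0.08 TPM in Slit1. The largest of these markers were Cd68 (microglial), at 1.91 and 3.77 TPM (19 and 39 counts), and Kdr (endothelial) in Slit1, at 0.24 and 0.80 TPM (12 and 42 counts). Cd68 was thus at least 1.5-fold higher, and Kdr was below the filter. All of these genes were named after their values were seen. Over 9 neuronal genes the sums were 176 and 179 TPM, and over 5 genes of pericytes and fibroblasts 22.7 and 22.1 TPM. All 8 astrocyte markers were thus detected beside the lineage genes; the cells that this RNA came from were not tested.

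With 1 library per group, no difference has a replicate check and no p-value is given. Differences are given as log2(TPM + 1), Slit1 minus control, and a member is called higher or lower when this differs by at least 1.5-fold. Ratios are ratios of the deposited TPM values, with an exact 95% interval for counting error only, which says nothing of the spread between cultures. Of the members, 42 had a mean of at least 1 TPM and were compared; Degs2, at 0.09 TPM and 1 count in each library, was not. Fewer cells of a type and less RNA per cell cannot be told apart in these bulk samples.

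The members that stood furthest apart were the 3 genes of galactolipid making, Fa2h, Ugt8 and Gal3st1. The 250 bases before the start of each, from RefSeq (build GRCr8), are printed 5′ to 3′ because these genes differed together. Capitals mark every match, on either strand, to 6 motifs: the GC box GGGCGG, the E-box CANNTG, the CCAAT box CCAAT, the Sox core ACAAT, the TATA box TATAAA and the sterol regulatory element TCACNCCAC. No matches overlapped in these sequences.
Fa2h, chr19:56273481-56273730, minus strand: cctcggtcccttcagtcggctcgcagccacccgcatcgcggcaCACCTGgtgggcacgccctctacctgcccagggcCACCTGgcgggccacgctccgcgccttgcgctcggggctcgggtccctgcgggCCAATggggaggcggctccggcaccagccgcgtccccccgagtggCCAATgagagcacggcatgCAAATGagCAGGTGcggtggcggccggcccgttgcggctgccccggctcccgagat
Ugt8, chr2:217007168-217007417, minus strand: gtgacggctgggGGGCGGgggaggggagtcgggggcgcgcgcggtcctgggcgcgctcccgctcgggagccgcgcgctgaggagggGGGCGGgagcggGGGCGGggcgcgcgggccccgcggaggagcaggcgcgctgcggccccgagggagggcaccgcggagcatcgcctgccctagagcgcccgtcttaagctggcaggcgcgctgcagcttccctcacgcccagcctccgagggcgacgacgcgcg
Gal3st1, chr14:83094135-83094384, plus strand: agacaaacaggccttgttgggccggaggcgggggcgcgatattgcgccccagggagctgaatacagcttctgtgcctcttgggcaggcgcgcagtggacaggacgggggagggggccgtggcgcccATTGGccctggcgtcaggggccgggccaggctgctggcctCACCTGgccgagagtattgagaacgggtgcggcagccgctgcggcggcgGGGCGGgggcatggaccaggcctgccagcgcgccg
None of the 6 motifs was found in all 3 windows. E-boxes and CCAAT boxes were in those of Fa2h and Gal3st1, and GC boxes in those of Ugt8 and Gal3st1. Over all 33469 RefSeq promoters of this length, 30.5% held a GC box, 65.5% an E-box, 34.0% a CCAAT box, 30.0% a Sox core, 12.9% a TATA box and 0.974% the sterol regulatory element. The windows were rich in G and C, at 74.4% for Fa2h, 81.2% for Ugt8 and 72.4% for Gal3st1, beside a median of 51.2% over all promoters. That median includes promoters of genes not in the table, and a median for genes in the table alone was not computed. A window was found for 36 members, of which 23 held a GC box, 18 an E-box, 15 a CCAAT box, 6 a Sox core, 2 a TATA box and 0 the sterol regulatory element. Among the 16097 windows of genes in the table, these motifs were in 49.2%, 60.1%, 34.5%, 20.9%, 8.25% and 0.938%, in the same order. Acaca, Arsa, Asah1, Elovl6, Fasn, Psap and Ugcg had no entry. These are matches of letters, not measured binding sites.

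Fa2h encodes the fatty acid 2-hydroxylase that prepares the hydroxylated acyl chains of myelin galactolipids. It was at 10.1 TPM (213 counts) in control and 32.6 TPM (717 counts) in Slit1, a ratio of 3.23 (interval 2.77 to 3.79). Among the 13175 genes tested, 46 had a larger log2 difference than its 1.60. Ugt8 encodes the transferase that adds galactose to ceramide. It was at 44.1 TPM in control and 129 TPM in Slit1, a ratio of 2.93 (interval 2.74 to 3.12) resting on 1246 and 3925 counts. Gal3st1, whose product sulfates galactocerebroside to sulfatide, was at 10.03 and 27.9 TPM, a ratio of 2.78 (interval 2.35 to 3.31). All 3 log2 differences lay between 1.39 and 1.60, and the intervals of the 3 ratios overlapped in part. They were also the members past 2-fold, a limit that 1.24% of all genes tested passed upward. No member was 2-fold lower (0 of 42), where 0.645% of all genes were.

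Oligodendrocyte markers moved with this group: Mbp was at 220 and 1704 TPM, Mag at 9.07 and 70.2 TPM and Cnp at 437 and 1153 TPM. Of the 5 listed markers 4 were tested, and all 4 were at least 1.5-fold higher. However, 1 of these, Mog (0.15 and 1.93 TPM), passed the filter of 1 TPM only through the Slit1 library, so its call carries little weight. The marker left out was Mobp (0.28 and 0.44 TPM). Mog and Mobp were named after their values were seen. Of the 5 lineage markers, 1 was at least 1.5-fold higher, the transcription factor gene Sox10, at 71.4 and 218 TPM. Olig1 was at 730 and 686 TPM and Cspg4 at 10.1 and 10.3 TPM. Among the astrocyte markers, 0 of 8 were higher and 2 were lower. For these marker counts, the shares of all genes tested that passed the 1.5-fold limit are 3.72% upward and 4.83% downward. The part of cell composition in the galactolipid values was not tested.

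Over all roles, 6 of the 42 members compared were at least 1.5-fold higher in the Slit1 library, where 3.72% of all genes tested were. Another 2 members were at least 1.5-fold lower, where 4.83% of all genes were. The higher members were Fa2h, Ugt8, Gal3st1, Acsl3, Acsl1 and Elovl7, and the lower ones Elovl2 and Cers6. The median log2 difference of the members was -0.03, beside -0.05 for all genes tested. Without the galactolipid genes, 3 of 39 were higher and 2 lower, with a median of -0.09. Of all genes past 1.5-fold, 43.5% were higher on the TPM scale and 54.3% with the median gene set to 0, while the 8 called members kept their calls under that setting and Sgms2 joined the higher ones.

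**Figure D1:**
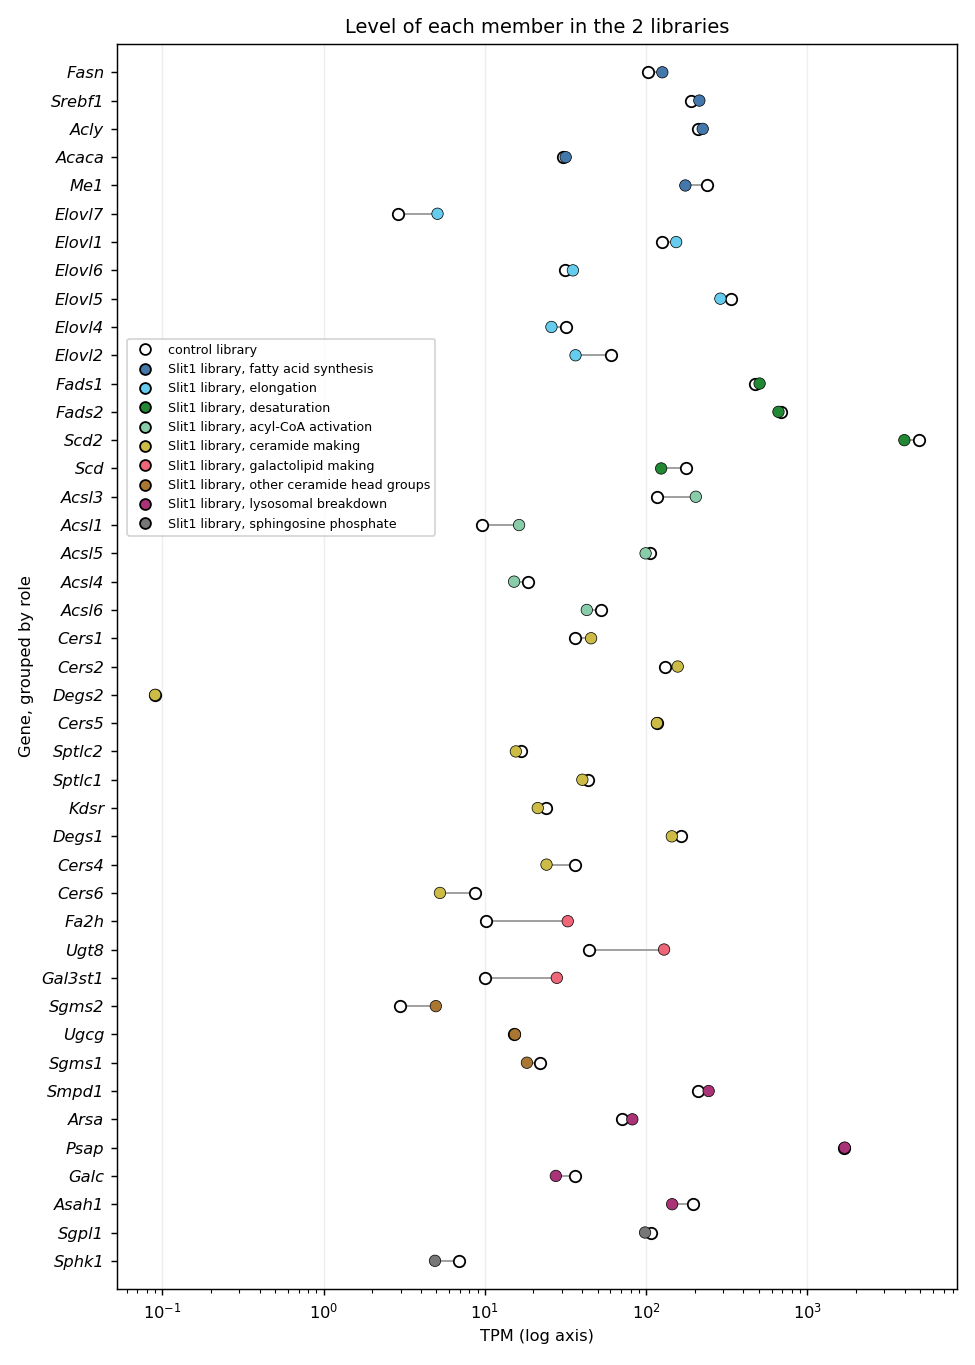
Level of each of the 43 members in TPM (log axis), with an open point for the control library, a coloured point for the Slit1 library and a line joining them. The galactolipid genes have the longest lines to the right, and Scd2 stands at the highest level, at 4937 and 3992 TPM.

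**Figure D2:**
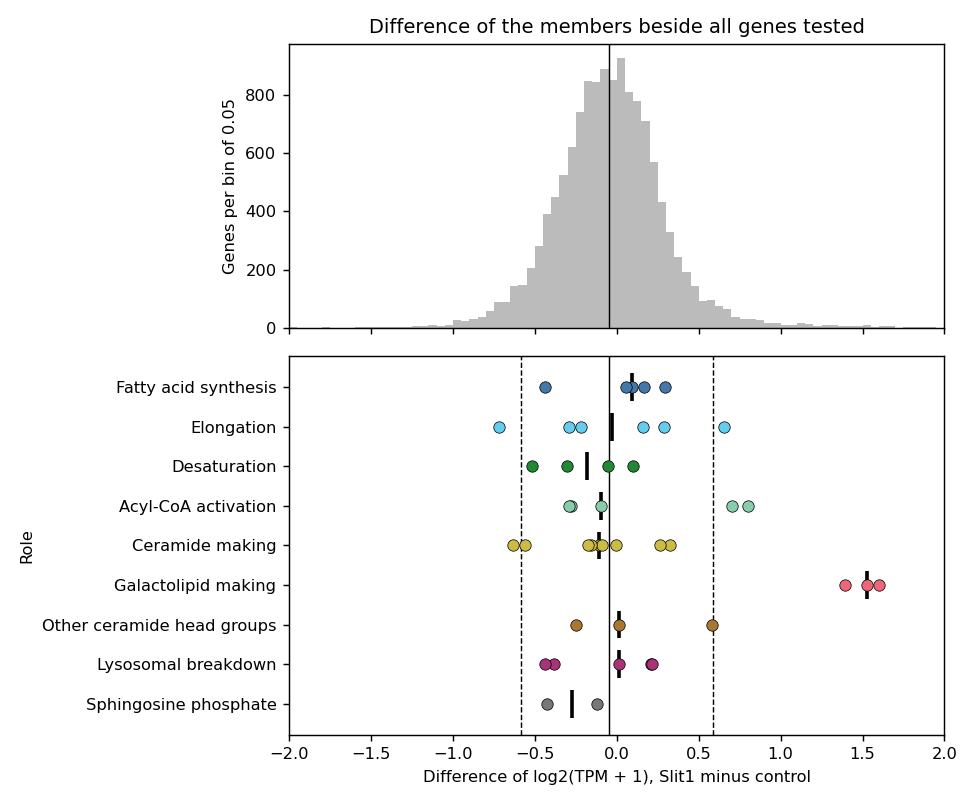
Above, the number of genes per bin of log2(TPM + 1) difference, Slit1 minus control, for the 13175 genes tested, with the outermost left out of view; below, each compared member by role, with a black bar at the median of the role. The thin line is the median gene and the dashed lines are 1.5-fold; the galactolipid points lie from 1.39 to 1.60, beyond every other member.

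The genes of fatty acid synthesis proper differed by less than 1.5-fold. Their median log2 difference was 0.09 over 5 genes, and their summed level was 771 TPM in control and 770 TPM in Slit1. Fasn, the synthase that builds palmitate, was at 103 TPM in control and 126 TPM in Slit1 (ratio 1.23, interval 1.19 to 1.26). Srebf1 encodes the transcription factor SREBP-1, a driver of lipid synthesis genes, and was at 191 and 214 TPM (ratio 1.12, interval 1.09 to 1.16). Acly, which supplies cytosolic acetyl-CoA, was at 210 and 224 TPM, and Acaca, which carboxylates it to malonyl-CoA, at 30.4 and 31.7 TPM, with an interval of 0.985 to 1.10 that includes 1. Me1, the cytosolic malic enzyme that supplies NADPH, lay on the other side, at 237 TPM in control and 175 TPM in Slit1 (ratio 0.738, interval 0.711 to 0.767). All synthesis genes but Me1 were thus above control, so the ratio of Fasn to Me1 within a library went from 0.433 to 0.720.

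Desaturases set the double bonds of the acyl chains. Scd2, the stearoyl-CoA desaturase of brain, was the most abundant member by far, at 4937 TPM in control and 3992 TPM in Slit1 (ratio 0.809, interval 0.804 to 0.814). Its paralog Scd was 1.43-fold lower (interval 1.38 to 1.49), at 177 and 124 TPM. Both Scd genes were therefore lower by less than the 1.5-fold limit, and how reads of these similar genes were divided between them was not tested. The desaturases of polyunsaturated fatty acids, Fads1 and Fads2, lie beside each other in the genome and were nearly level, at 472 and 505 TPM for Fads1 and 687 and 661 TPM for Fads2. The side on which Fads2 lay depended on the scale, with a ratio of 0.963 in TPM and 1.04 in CPM (counts per 1000000 counts of the library).

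The 6 elongases divided evenly, 3 above control and 3 below. Elovl1, which makes saturated and monounsaturated very long chains, was at 125 and 153 TPM (ratio 1.23, interval 1.15 to 1.31). Elovl6, which extends palmitate to stearate, was at 31.3 and 35.1 TPM (ratio 1.12, interval 1.05 to 1.20), with a CPM ratio of 1.21. Elovl7, another elongase of saturated chains, was scarce, at 2.87 and 5.08 TPM (75.0 and 138 counts, ratio 1.77, interval 1.33 to 2.38). It was not past 1.5-fold as log2(FPKM + 1), at 0.556, though its plain FPKM ratio was 1.83, nor with a pseudocount of 5. On the lower side stood the elongases known for polyunsaturated chains. Elovl2 was 1.66-fold lower (interval 1.55 to 1.79), at 60.6 TPM in control and 36.4 TPM in Slit1, and with 329 of the genes tested below its log2 difference of -0.72. Elovl5, the most abundant elongase, was at 335 and 289 TPM (ratio 0.860, interval 0.833 to 0.889), and Elovl4, which makes the longest chains, at 31.9 and 25.8 TPM (ratio 0.811, interval 0.695 to 0.943).

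The make-up of the elongase family differed between the libraries. Its summed level was 587 TPM in control and 544 TPM in Slit1. Elovl1 took 21.3% of it in control and 28.2% in Slit1, while Elovl2 took 10.3% and 6.69% and Elovl5 57.1% and 53.0%. The ratio of Elovl1 to Elovl2, into which no scaling between libraries enters, was 2.07 in control and 4.21 in Slit1, a 2.04-fold difference (counting interval 1.85 to 2.25). This pair, like the other pairs given here, was chosen after the values were seen. Elovl2 is strongly expressed in astrocytes; beside its lower level, the astrocyte genes Slc1a2 (215 and 94.1 TPM) and Gja1 (506 and 296 TPM) were at least 1.5-fold lower, while Gfap and Aqp4 (389 and 462 TPM) were above control. Of the 8 astrocyte markers 4 lay above control and 4 below, and without Gfap the other 7 summed to 4753 TPM in control and 4320 TPM in Slit1. Their part in the value of Elovl2 was not tested.

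Long-chain acyl-CoA synthetases activate fatty acids for use in lipids. Acsl3, the member of this family found on the endoplasmic reticulum and lipid droplets, was at 116 TPM in control and 203 TPM in Slit1 (2736 and 4971 counts), a ratio of 1.75 (interval 1.67 to 1.83). A gene without a name that overlaps it, LOC102551819, was at 7.90 and 11.6 TPM (ratio 1.46). Acsl1 was at 9.61 and 16.3 TPM (ratio 1.69, interval 1.47 to 1.96) and was not past 1.5-fold with a pseudocount of 5. The other 3 synthetases were on the opposite side: Acsl5 at 106 and 99.2 TPM, Acsl6 at 52.7 and 42.8 TPM (ratio 0.812, interval 0.753 to 0.876), and Acsl4, which prefers arachidonate, at 18.6 and 15.2 TPM (ratio 0.816, interval 0.734 to 0.905). Acsl3 made up 38.4% of the family's summed TPM in control and 53.9% in Slit1, and the sum was 303 and 377 TPM.

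**Figure D3:**
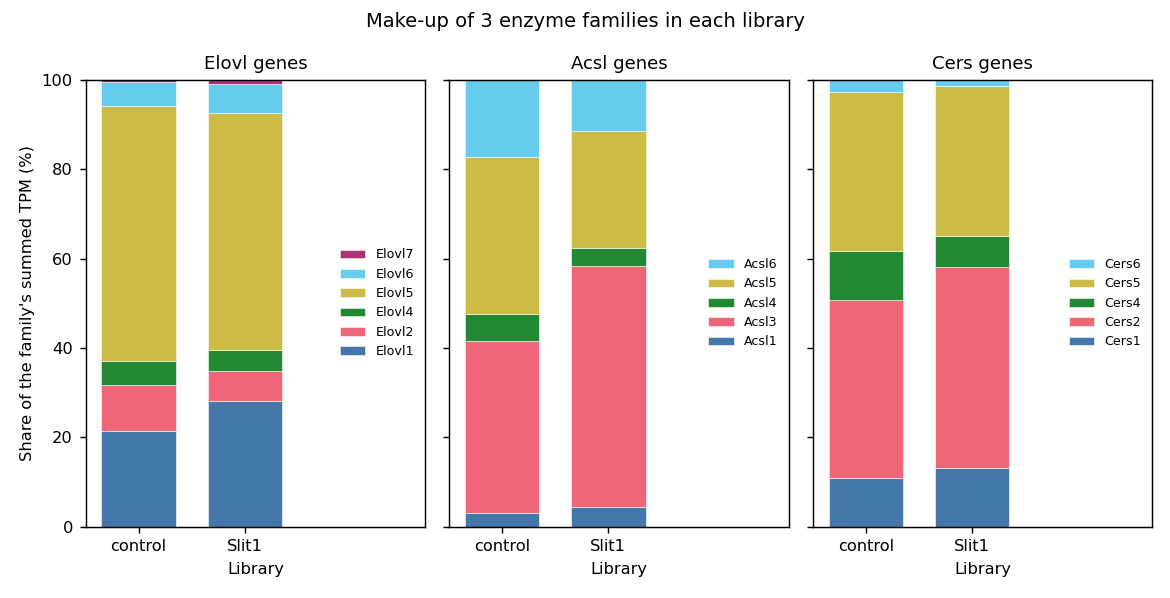
Share of each gene in the summed TPM of its family, in percent, for the 6 elongases, the 5 acyl-CoA synthetases and the 5 ceramide synthases in each library. The Acsl3 segment widens from 38.4% to 53.9%, Elovl1 from 21.3% to 28.2% and Cers2 from 39.8% to 45.0%.

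Ceramide making as a whole was close to the median gene, with a median log2 difference of -0.11 over 9 compared genes and a sum of 576 TPM in control and 570 TPM in Slit1. The pathway opens with serine palmitoyltransferase. Its subunit genes were at 43.5 and 40.2 TPM for Sptlc1 and at 16.6 and 15.6 TPM for Sptlc2, with intervals that include 1 (0.846 to 1.01 and 0.847 to 1.03). The side of Sptlc2 depended on the scale, since its counts were 782 and 845 and its CPM ratio 1.07. Kdsr, the reductase of the next step, was at 23.9 and 21.3 TPM (interval 0.781 to 1.02), and Degs1, the desaturase that completes ceramide, at 163 and 144 TPM (ratio 0.883, interval 0.830 to 0.939). None of these steps reached 1.5-fold.

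Ceramide synthases choose the acyl chain, and they did not differ alike. Cers2, the synthase of very long chains and the main one in myelinating cells, was at 131 TPM in control and 157 TPM in Slit1 (ratio 1.20, interval 1.14 to 1.27). Cers5, which uses palmitate, was level at 116.9 and 116.6 TPM (ratio 0.997 in TPM and 1.02 in CPM). Cers6, which shares that preference, was at 8.73 and 5.26 TPM (531 and 337 counts), 1.66-fold lower (interval 1.45 to 1.91). It was not past 1.5-fold as log2(FPKM + 1), at -0.522, though its plain FPKM ratio was 0.621, nor with a pseudocount of 5. Cers4 lay just short of the limit, with a log2 difference of -0.56, at 36.0 and 24.1 TPM, 1.496-fold lower as a TPM ratio (interval 1.40 to 1.60). The ratio of Cers2 to Cers6 within a library was 15.0 in control and 29.8 in Slit1, a 1.99-fold difference (counting interval 1.72 to 2.31).

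Cers1, the synthase of stearoyl ceramide in neurons, was at 36.2 and 45.5 TPM, but its row holds the same values as that of Gdf1, a growth factor gene that overlaps it, in every measure. The table does not separate these genes, and the value may belong to either. No other member with more than 5 counts had a row identical to that of another gene. By RefSeq, 8 members overlap another measured gene: Acaca, Srebf1, Acsl3, Acsl5, Cers1, Cers2, Galc and Psap. Since the handling of strand is not known, reads of such pairs may not have been separated; among the partners, Setdb1 (Cers2) was at 41.5 and 43.4 TPM, Gpr65 (Galc) at 0.09 TPM in both libraries and Cdh23 (Psap) at 2.12 and 2.79 TPM. Without Cers1 the median of ceramide making was -0.14.

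Ceramide can also receive other head groups, and those genes did not share the galactolipid pattern. Ugcg, which makes glucosylceramide, the root of gangliosides, was at 15.2 and 15.4 TPM (ratio 1.01, interval 0.892 to 1.15). Sgms1, the Golgi sphingomyelin synthase, was at 21.9 and 18.2 TPM (ratio 0.833, interval 0.743 to 0.934). Its plasma membrane counterpart Sgms2 was scarce, at 2.98 and 4.96 TPM (145 and 275 counts; ratio 1.66, interval 1.36 to 2.05). On the log2(TPM + 1) scale Sgms2 lay just under 1.5-fold, at 0.58, and it was past the limit in CPM, with edgeR TMM factors, with the median gene set to 0 and with a pseudocount of 0.1. The ratio of Ugt8 to Ugcg, the competing users of ceramide for sugar head groups, was 2.91 in control and 8.41 in Slit1, a 2.89-fold difference (counting interval 2.52 to 3.33).

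Lysosomal breakdown had no member past 1.5-fold, and the genes lay on both sides of control around a median of 0.01. Psap, the precursor of the saposins that help the hydrolases reach their lipids, was at 1689 and 1703 TPM (ratio 1.01, interval 0.994 to 1.02). Galc, which removes galactose from galactocerebroside, was at 36.2 and 27.5 TPM, 1.31-fold lower (interval 1.19 to 1.45), and Asah1, acid ceramidase, at 196 and 145 TPM, 1.35-fold lower (interval 1.29 to 1.42). In the other direction stood Arsa, which removes sulfate from sulfatide, at 70.9 and 82.0 TPM (ratio 1.16, interval 1.08 to 1.24), and Smpd1, acid sphingomyelinase, at 210 and 244 TPM (ratio 1.16, interval 1.11 to 1.21). The summed level of the 5 genes was 2203 TPM in control and 2202 TPM in Slit1, and most of it was Psap, which is not a hydrolase.

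The RNA ratio of a making enzyme to the enzyme that undoes its step was higher in the Slit1 library for both myelin galactolipids. The ratio of Ugt8 to Galc, which add and remove the same galactose, was 1.22 in control and 4.69 in Slit1, a 3.84-fold difference (counting interval 3.43 to 4.31). For the sulfate of sulfatide, the ratio of Gal3st1 to Arsa was 0.142 and 0.340, a 2.40-fold difference (interval 2.01 to 2.88). These are ratios of RNA levels within a library and not of enzyme activities. They restate the differences of the single genes, with TPM ratios of 2.93 for Ugt8, 0.761 for Galc, 2.78 for Gal3st1 and 1.16 for Arsa.

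Sphingosine phosphate is the signalling product of ceramide breakdown. Sphk1, a kinase that makes it, was at 6.93 and 4.90 TPM (122 and 90.0 counts; ratio 0.707, interval 0.532 to 0.936). Sgpl1, the lyase that ends the pathway, was at 107 and 98.4 TPM (ratio 0.920, interval 0.878 to 0.963), with a CPM ratio of 0.974. Neither was past 1.5-fold.

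Under the stricter rule that the counting interval lie wholly beyond 1.5-fold, 4 members were higher, where 2.03% of all genes tested were, and 1 was lower, where 1.96% were.

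**Figure D4:**
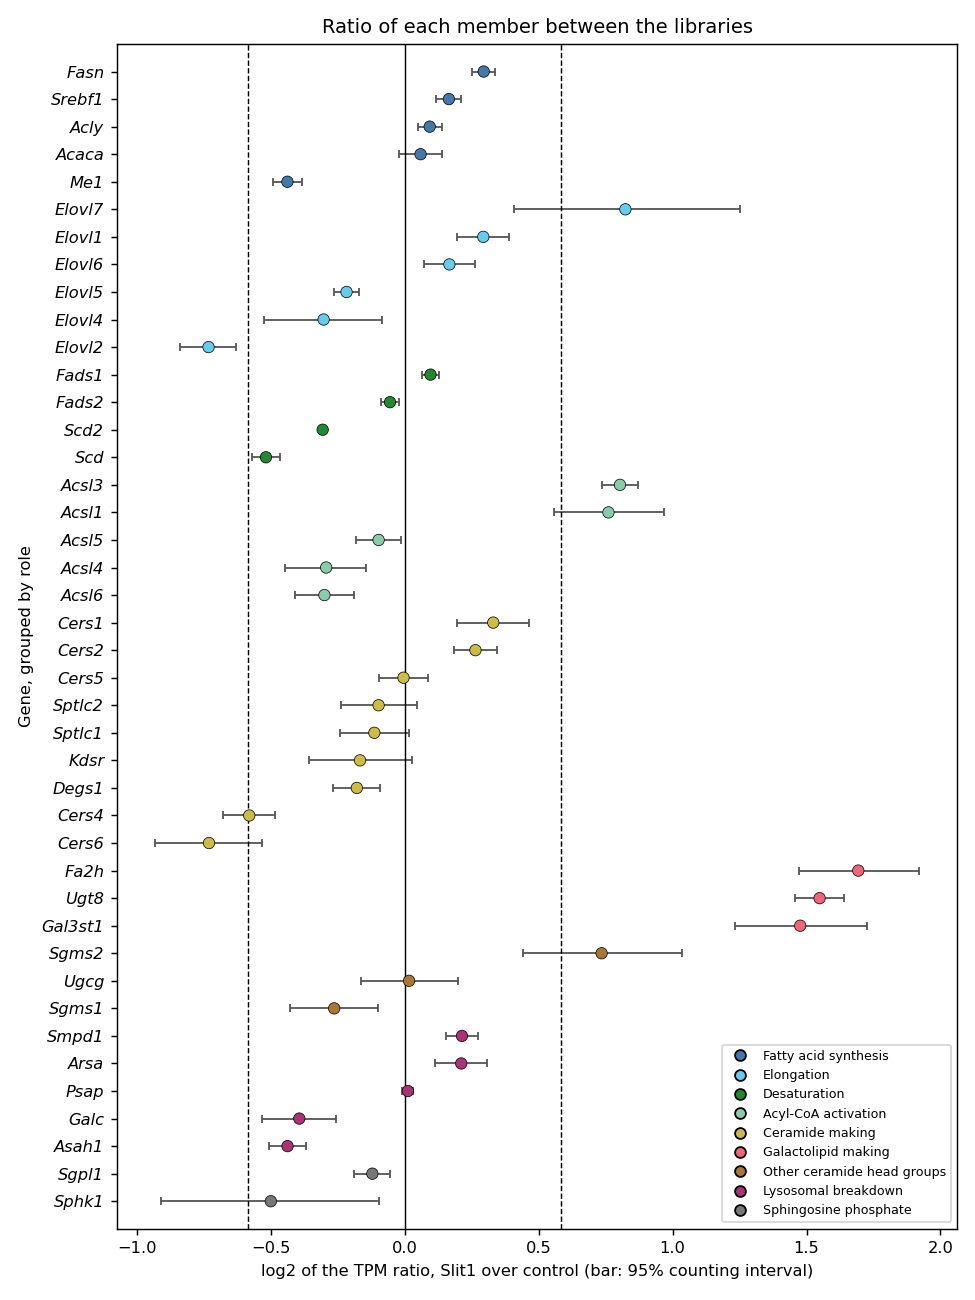
TPM ratio, Slit1 over control, on a log2 axis for the 42 compared members grouped by role, with bars for the 95% counting interval and dashed lines at 1.5-fold. The intervals of Fa2h, Ugt8, Gal3st1 and Acsl3 lie wholly above the upper line and that of Elovl2 wholly below the lower one.

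Other lipid genes were counted from lists of 107 symbols outside the members, of which 94 were compared. Of these, 2 (2.13%) were at least 1.5-fold higher and 5 (5.32%) lower, with a median of -0.04. Over all genes tested, 3.72% were higher and 4.83% lower, which are also the shares to set beside each list below. In fatty acid making (24 compared), 0 were higher and 1 was lower, Thrsp, a lipogenic nuclear protein (18.7 and 10.6 TPM, 1.76-fold lower, interval 1.39 to 2.25). In sphingolipid making, 0 of 12 passed the limit, and 10 of them lay below control. Gltp, a glycolipid transfer protein, was at 160 and 219 TPM (ratio 1.37, interval 1.30 to 1.45), and Samd8 at 67.9 and 49.4 TPM (ratio 0.728, interval 0.690 to 0.768). In ganglioside making, 0 of 6 passed it.

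Sphingolipid breakdown outside the members had 0 higher and 3 lower of 17, where 3.72% of all genes tested were higher and 4.83% lower. Scarb2, the receptor that carries glucocerebrosidase to lysosomes, was at 174 and 107 TPM, 1.63-fold lower (interval 1.54 to 1.73). The other lower genes, named after their values were seen, were the scarce Asah2 (3.30 and 1.37 TPM) and Naaa (2.03 and 0.94 TPM). Naaa passed the filter of 1 TPM only through the control library, so its call carries little weight. In fatty acid oxidation, 2 of 31 were higher and 0 lower: Ehhadh, a peroxisomal enzyme, at 4.68 and 11.7 TPM (ratio 2.51, interval 2.04 to 3.12), and Cpt1b at 1.44 and 2.96 TPM, named after its value was seen. Among ether lipid genes, which make the plasmalogens of myelin, 1 of 4 was lower, Agps, at 26.9 and 13.7 TPM (1.97-fold lower, interval 1.69 to 2.30).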

How the data were processed

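RNA sequencing data of 2 libraries of rat OPCs, 1 per group, were used. The authors deposited 1 table of 17455 genes with FPKM, TPM and estimated counts, per the file headers; the deposited TPM values sum to 1000000 per library, and 26.1% (control) and 31.4% (Slit1) of the deposited estimated counts lie within 0.01 of a whole number. The submitters' processing notes name mRatBN7.2 as build; aligner, counter, annotation and strand are not stated in the sources. The 13175 genes that averaged 1 TPM or more were compared as log2(TPM + 1). Ratio intervals are exact (Clopper-Pearson, 95%) for counts rounded to whole numbers; intervals of ratios between genes use a normal approximation on the log scale. With 1 library per group there was no test. Members and lists were chosen with earlier results of these data known. The text names all members. From the other lists it draws on the 4 genes with the largest absolute difference at 5 TPM or more and on a few lineage genes, of which it describes a part; further names are marked, and 1 gene is not reported here. Gene numbers matched RefSeq (GRCr8) for 17211 genes, used for names, overlaps and promoters. The calculation was tested on simulated data. Alternatives used pseudocounts of 0.1 and 5, other filters, fold limits and scalings, among them edgeR 4.0.16 TMM factors. CPM and FPKM values were also compared on the log2 scale after adding 1, which weighs more on low values. Python 3.11.15 and scipy 1.17.1 were used. The number of value columns of other samples was 0.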

Additional observations from a re-analysis of the deposited data

How the results depend on the processing

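No paired analysis was possible because each group holds 1 library, and no library could be left out. The 6 higher members numbered 4 to 8 under the alternatives at 1.5-fold, at the loosest fold limit tried and with intervals wholly beyond 1.5-fold (8 at the loosest limit, where 10.7% of all genes were, 5 in FPKM, where 3.29% were, and 4 with a pseudocount of 5, where 1.96% were), and 3 at 2-fold (Fa2h, Ugt8 and Gal3st1, which were higher under all alternatives run). The 2 lower members were 1 in FPKM, where 2.74% of all genes were, 1 with a pseudocount of 5, where 2.10% were, and 1 with intervals wholly beyond 1.5-fold (Elovl2 each time), 0 at 2-fold, where 0.645% of all genes were, and 8 at the loosest limit, where 17.9% of all genes were. The median of galactolipid making was 1.32 with a pseudocount of 5 and 1.53 to 1.64 otherwise. That of fatty acid making and elongation was 0.073 in CPM, 0.085 with edgeR TMM factors and -0.055 with a floor of 5 TPM, beside 0.001. That of lysosomal breakdown was 0.0558 in CPM, 0.0557 in FPKM, 0.0583 with the median gene set to 0 and 0.0675 with edgeR TMM factors, beside 0.012. The median of all genes tested was -0.0465 on the main scale, -0.0084 in CPM, -0.0057 in FPKM and 0.0017 with edgeR TMM factors. Setting the median gene to 0 adds the same amount to every gene. The floor of 5 TPM left 19 of the 20 genes of fatty acid making and elongation, without Elovl7. The cause of the other shifts was not tested. Leaving out Cers1 was chosen after seeing the data. No called member changed sign. Counting error limits Elovl7, Sgms2 and Sphk1 most.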
